A study of Mus musculus with 12 samples.

Results

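The comparison described here is amphiregulin (AREG) against vehicle, phosphate-buffered saline (PBS), in injured mouse muscle 4 days after injury with regulatory T (Treg) cells present. Its members were chosen by label alone: the 3 arrays named for day 4, Foxp3-DTR- and AREG, and the 3 named for day 4, Foxp3-DTR- and PBS, which are 6 of the 12 arrays in the series. Each array measured RNA of whole tibialis anterior (TA) muscle from C57BL/6 mice that were 8 weeks old. Cardiotoxin, a snake venom toxin that destroys muscle fibres and sets off their regeneration, had been injected into the muscle on day 0. AREG or PBS was given into the muscle on that day and into the peritoneum every other day afterwards. Every mouse, controls included, also received diphtheria toxin every other day. The mice compared here carried no Foxp3-driven diphtheria toxin receptor, so per the design the toxin had no Treg cells to deplete. The 6 remaining arrays came from Foxp3-DTR+ (Treg-depleted) mice at day 8, again 3 with AREG and 3 with PBS. Day and genotype therefore change together between the settings and cannot be told apart.

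Amphiregulin is a ligand of the epidermal growth factor (EGF) receptor. Treg cells and other cells of injured muscle secrete it, and muscle progenitors carry its receptor. In the first days after cardiotoxin, monocytes enter the muscle, become macrophages that clear dead fibres, and then support repair. Over the same days matrix-producing cells lay down a provisional scaffold, and muscle progenitors divide, fuse and form new fibres that pass through an embryonic programme before they mature.

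Values are intensities on a linear scale, and a change is AREG minus PBS on the log2 scale with the standard error (SE) of the limma fit, n = 3 arrays per group. A gene was called, and is said to have risen or fallen, where its Benjamini-Hochberg adjusted p was under 0.05 over the 19752 genes tested. Array values are given in the order of replicates 1, 2 and 3. Median intensities of the 12 arrays lay between 134 and 143. The middle of the distribution was narrower in the replicate 1 arrays of day 4, with interquartile ranges of 2.19 (AREG) and 2.37 (PBS) on the log2 scale, against 2.59 to 2.65 in the other 4. Muscle fibre markers (Acta1, Ckm, Tnnt3, Mylpf, Myh4) lay above the 99.6th percentile of level and 0 of the 5 were called. Whether the 3 arrays of a group are 3 animals is not stated, so a p-value here speaks only to the spread among these samples, and precision is limited by how few arrays there are. In bulk muscle, fewer cells of a type and less RNA per cell cannot be told apart.

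AREG-treated muscle differed from PBS-treated muscle in 573 genes, 2.9% of those tested, of which 156 (0.79%) were higher and 417 (2.11%) lower. Falls were the larger changes: the median called fall was 0.80 and the median called rise 0.64 on the log2 scale, and of 112 called genes that differed by at least 1, 106 were lower. Called genes were mostly well expressed, with 498 of the 573 above the median level of all genes (an intensity of 144) and 334 above the upper quartile (328). The groups did not overlap in 572 of them, against 4395 (22.3%) of all genes. The median change over all genes was 0.04, and 40.9% of genes were lower by any amount. After a second quantile normalisation 41.4% of the calls were higher, against 27.2% as reported.

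**Figure D1:**
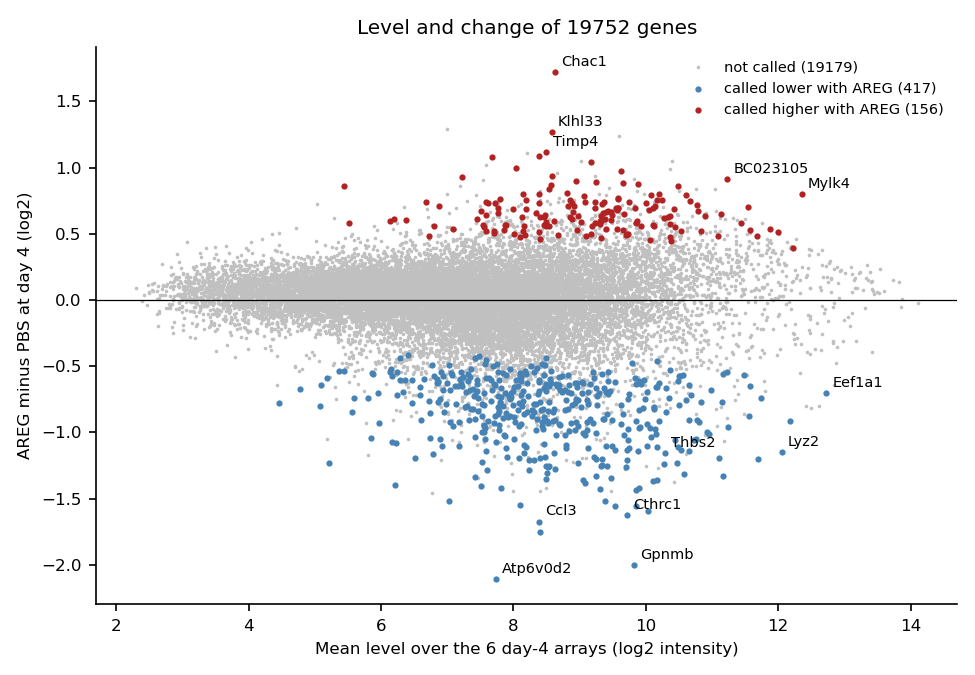
Change with AREG (vertical axis, log2, AREG minus PBS) against mean log2 intensity over the 6 day-4 arrays (horizontal axis), 1 point per gene; the 573 called genes are coloured by direction. Called falls (417) reach further from 0 than called rises (156), and most called genes lie above the median level.

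The calls rested on few arrays. Leaving out AREG replicate 1, 2 or 3 left 15, 308 or 9 calls, and leaving out PBS replicate 1, 2 or 3 left 228, 9 or 418. No gene passed without both replicate 1 arrays, where 2881 still had an unadjusted p under 0.05 in limma. All 562 called genes that were followed (ribosomal protein, Gm and Rik genes left out) kept their sign in every alternative in which they were tested. The groups did not overlap in 572 of the 573 called genes, so leaving arrays out could not turn the sign of these. Deviations of arrays of the same number correlated at day 4 (0.558, 0.201 and 0.511 for replicates 1, 2 and 3), weakly for replicate 2. A second fit that treats the number as a block (the blocked fit) is therefore given below wherever it changes a call or a count. It called 914 genes, 305 higher and 609 lower.

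The firmest calls were 6 genes that passed in 15 of the 16 alternatives and missed only without both replicate 1 arrays. Cthrc1, Thbs2, Nt5dc2 and Tubb2b were lower, and BC023105 and Cntfr were higher. Cthrc1, a secreted glycoprotein of activated matrix-producing cells, read 411, 547 and 489 in the AREG arrays and 1594, 1463 and 1377 in the PBS arrays. It fell by 1.62 ± 0.19 on the log2 scale (adjusted p = 0.00279, limma). Thbs2 (thrombospondin-2), a matricellular protein that restrains vessel growth, read 702, 895 and 937 in the AREG arrays and 1728, 2005 and 1890 in the PBS arrays and fell by 1.16 ± 0.13. Nt5dc2, a member of the 5'-nucleotidase domain family, read 309.8, 471 and 422 in the AREG arrays and 875, 1411 and 1174 in the PBS arrays, a fall of 1.52 ± 0.20. Tubb2b, a beta-tubulin of young muscle cells and neurons, read 369, 495 and 317 in the AREG arrays and 1201, 1112 and 846 in the PBS arrays and fell by 1.43 ± 0.19. In all 4 genes the highest AREG array lay below the lowest PBS array. Such separation goes with a call: it held in 572 of the 573 called genes and in 22.3% of all genes.

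BC023105, a gene known by a clone name, read 3297, 3521 and 3052 in the AREG arrays and 1678, 1869 and 1699 in the PBS arrays and rose by 0.91 ± 0.11 (adjusted p = 0.00279, limma). Cntfr, the receptor of ciliary neurotrophic factor, read 518, 596 and 436 in the AREG arrays and 271, 294 and 278 in the PBS arrays and rose by 0.87 ± 0.12. Both genes separated the groups, as nearly all called genes did. Hmox1 (heme oxygenase), Klhl33, the microfibril-binding protein Ltbp2, the small GTPase Rrad, the lectin Cd209d and the tyrosine phosphatase Ptpn3 passed in 13 alternatives, and Sfrp1 (a secreted Wnt modulator) and Tubb2a in 14.

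**Figure D2:**
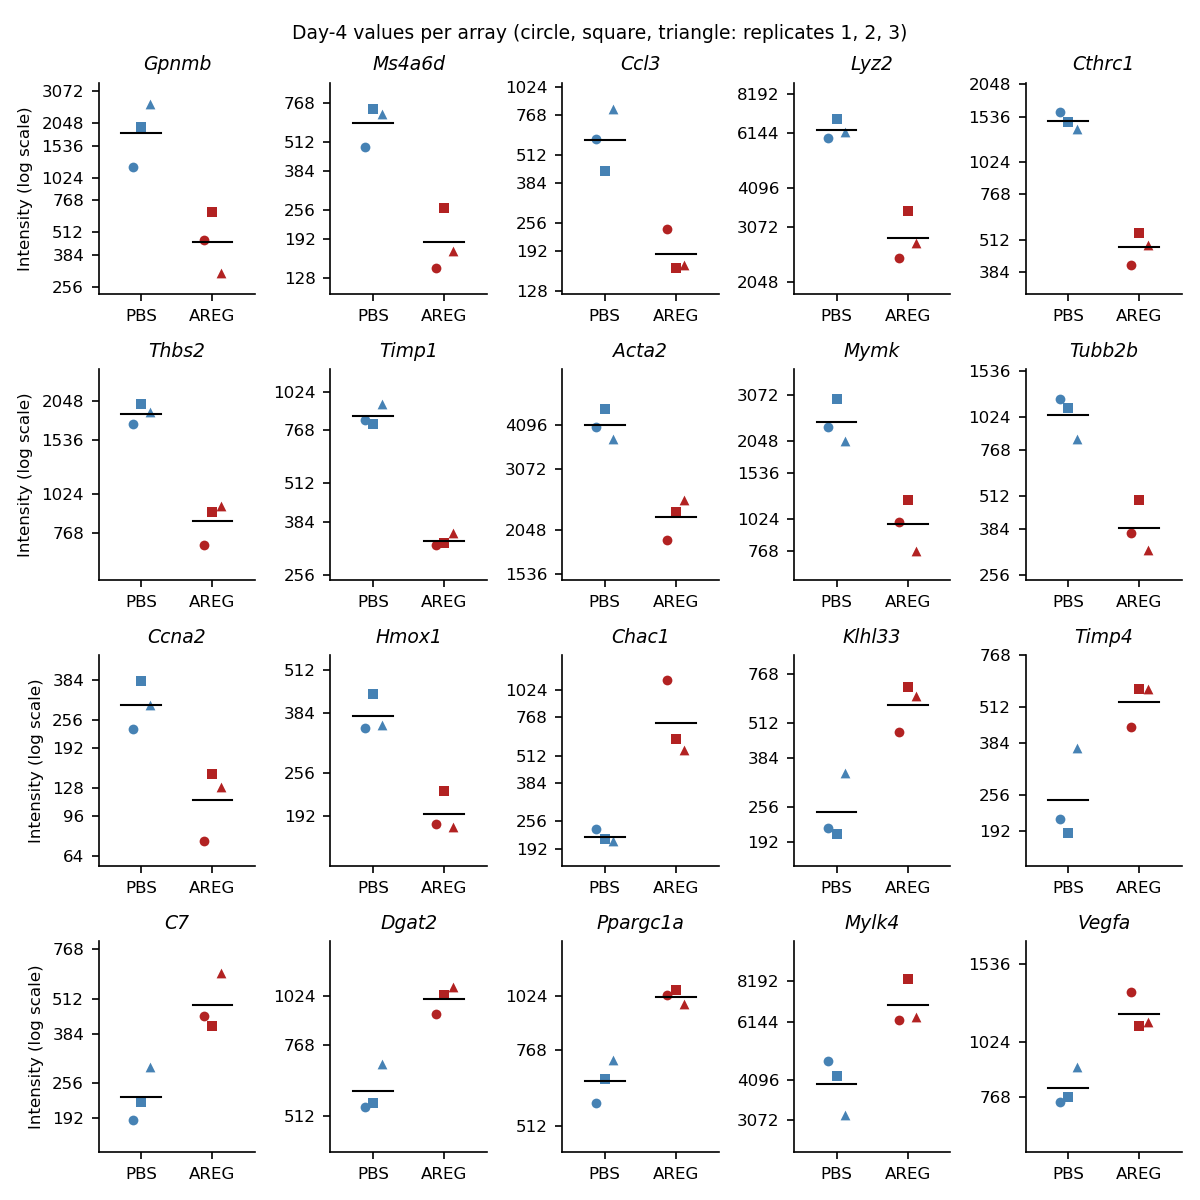
Intensity (log axis) of 20 genes in each day-4 array; circle, square and triangle are replicates 1, 2 and 3, bars are geometric means, and AREG and PBS are drawn in different colours. In each of the 20 genes, as in 572 of the 573 called genes, the AREG and PBS arrays do not overlap. Replicates of 1 group can still lie far apart, as in the AREG arrays of Chac1 (542 to 1131).

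Of the receptors that AREG and its relatives act through, 1 of 4 was called. Erbb3, a receptor for neuregulins that signals with Erbb2, read 191, 244 and 214 in the AREG arrays and 307, 410.3 and 303 in the PBS arrays and fell by 0.65 ± 0.14 (adjusted p = 0.0297, limma). Egfr, the receptor of AREG, read 473, 549 and 621 in the AREG arrays and 615, 721 and 707 in the PBS arrays, which overlap, and its difference of -0.32 ± 0.14 did not pass. Erbb2 and Erbb4 differed by -0.27 ± 0.14 and 0.15 ± 0.13 and were not called. At day 8 Erbb3 differed by 0.03 ± 0.14.

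None of the 10 other EGF family ligands measured was called. Areg itself had no cluster of its own and was not analysed here. Nrg4, a neuregulin secreted by fat cells, came nearest at 0.50 ± 0.13 (adjusted p = 0.0571, limma), with 51.0, 63.2 and 54.8 in the AREG arrays and 36.9, 40.8 and 41.9 in the PBS arrays. The remaining ligands lay between -0.21 (Nrg2) and 0.24 (Egf), with Btc at 0.22, Epgn at -0.18, Nrg1 at -0.16, Ereg at -0.12, Hbegf at 0.12, Nrg3 at 0.11 and Tgfa at 0.01. Of 27 genes for ligand shedding, receptor turnover and ERK feedback, 0 were called. Lrig1, a membrane protein that promotes breakdown of EGF receptors, was the nearest at 0.50 ± 0.13 (adjusted p = 0.052, limma) and read 606, 595 and 618 in the AREG arrays and 389, 446 and 454 in the PBS arrays. Adam10 and Adam17, the proteases that release EGF family ligands, differed by -0.38 and -0.45.

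Macrophage genes were lower. Of the defining markers Adgre1, Cd68, Csf1r, Lyz2, Cd14 and Itgam, all but Adgre1 fell, 5 of 6. Lyz2 (lysozyme), the most abundant of them, read 2445, 3466 and 2729 in the AREG arrays and 5948, 6843 and 6187 in the PBS arrays. The fall was 1.15 ± 0.27, a 2.22-fold difference with adjusted p = 0.0385 (limma). Csf1r, the receptor that keeps macrophages alive, read 514, 768 and 559 in the AREG arrays and 1035, 1509 and 1071 in the PBS arrays and fell by 0.97 ± 0.23. Adgre1 (F4/80) was not called at -1.19 ± 0.36. Its arrays did not overlap (275, 463 and 370.1 against 672, 1020 and 819), as in 22.3% of all genes.

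Fc receptors and their signalling chain moved furthest as a list, with 9 of 18 measured members lower, 0 higher and all 18 below 0 (median -0.95). These receptors bind antibody-coated debris and signal through the adaptors Fcer1g and Tyrobp. Fcer1g read 716, 733 and 618 in the AREG arrays and 1531, 1854 and 1968 in the PBS arrays and fell by 1.37 ± 0.31, and Tyrobp read 284, 507 and 398 in the AREG arrays and 829.7, 1112 and 986 in the PBS arrays and fell by 1.33 ± 0.33. For both adaptors the lowest PBS array lay above the highest AREG array. The gap exceeded the spread within either group on the linear scale, but for Tyrobp not on the log2 scale. Fcgr3 and Fcgr2b, an activating and an inhibitory receptor for IgG, fell by 1.26 ± 0.28 and 1.26 ± 0.31, Trem2 by 1.15, Fcgr1 by 0.99, Lilrb4a by 1.18, Pirb by 0.92 and Lat2 by 0.81. Lat2 was not called in the blocked fit (adjusted p = 0.0535, limma), where 7 members fell. Fcgr4 differed by -1.21 without passing.

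In the integrin and NADPH oxidase list 2 of 15 members fell and all 15 lay below 0 (median -0.55). Cyba, the membrane subunit of the oxidase that makes superoxide in phagocytes, read 437, 537 and 543 in the AREG arrays and 969.8, 1237 and 1121 in the PBS arrays and fell by 1.13 ± 0.24. Itgam (CD11b), the complement-receptor integrin, read 173, 189.7 and 176 in the AREG arrays and 273, 396 and 477 in the PBS arrays and fell by 1.05 ± 0.25. Cybb, the partner of Cyba, and the integrins Itgax and Itgb2 differed by -1.25 ± 0.34, -1.09 ± 0.32 and -1.09 ± 0.33 and were not called. Their errors were larger than that of Cyba.

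Among families gathered by name after their values had been seen, the Ms4a tetraspan genes had 4 of 18 members lower: Ms4a6d (by 1.75), Ms4a6c, Ms4a4a and Ms4a6b, which are expressed in macrophages. Ms4a6d read 142, 262 and 169.6 in the AREG arrays and 487, 723 and 686 in the PBS arrays. C-type lectins had 3 of 33 lower, Clec4n, Clec5a and Clec4d, and of these Clec4n fell by 1.40 ± 0.26 from 114, 121 and 126 to 33.0, 63.1 and 45.9. The sialic acid receptors Cd33 and Siglec1 fell by 0.64 and 0.74, 2 of 7 measured. Cd53, Cd82 and Cd63, tetraspanins of leukocyte and endosomal membranes, fell by 1.34, 0.91 and 0.84, which was 3 of the 6 gathered. Against these, Cd209d, a lectin of the DC-SIGN family, was the 1 of 7 Cd209 genes called, and it rose by 0.74 ± 0.12 with 142, 141 and 116 in the AREG arrays and 72.0, 88.5 and 78.2 in the PBS arrays.

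Lysosomal genes were lower, proteases and hydrolases more so than the proton pump. Of 32 proteases and hydrolases 11 fell, 0 rose and 28 lay below 0 (median -0.63). The blocked fit called 16 lower. Ctsb (cathepsin B), the most abundant of those called, read 2185, 3154 and 2697 in the AREG arrays and 3868, 4883 and 4623 in the PBS arrays and fell by 0.74 ± 0.16. Ctss (cathepsin S), a protease of antigen-presenting cells, read 339, 662 and 358 in the AREG arrays and 1018, 1446 and 1386 in the PBS arrays. It fell by 1.56 ± 0.38, and AREG replicate 2 lay well above the other AREG arrays. Lipa (acid lipase) fell by 1.26 ± 0.29, Ctsh by 1.23, Lgmn (legumain) by 1.13, Gusb by 1.02, Ctsz by 1.01, Grn (progranulin) by 1.00, Hexa by 0.83 and Galns by 0.64, which with Cd63 make up the 11.

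Of 17 subunits of the vacuolar proton pump, which acidifies lysosomes, 3 fell and 14 lay below 0, with a median of only -0.24. Atp6v0d2, the subunit isoform of macrophages and osteoclasts, had the largest fall of any gene named here and also the widest spread: 86.6, 192 and 64.5 in the AREG arrays and 236, 459 and 791 in the PBS arrays. Its change was a fall of 2.11 ± 0.53 (adjusted p = 0.0463, limma), and within each group the highest array lay well above the lowest. Tcirg1 and Atp6v1a fell by 0.95 ± 0.21 and 0.63 ± 0.14, while the ubiquitous subunit Atp6v0d1 was not called at -0.39 ± 0.13.

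Lipid handling in phagocytes followed, with 9 of 20 members lower and 0 higher (median -0.37). Gpnmb, a glycoprotein of lipid-loaded macrophages, read 461, 664 and 304 in the AREG arrays and 1165, 1957 and 2618 in the PBS arrays, a fall of 2.00. Apoe, the lipoprotein that carries cholesterol out of cells, was the most abundant member and read 2982, 4043 and 3189 in the AREG arrays and 6220, 6845 and 6055 in the PBS arrays. The sterol exporters Abca1 and Abcg1 fell by 0.61 ± 0.15 and 0.93 ± 0.21, Acp5 by 0.92, the lysosomal phospholipase Pla2g15 by 0.55, Fabp5 by 1.20, Msr1 by 1.23 and Lgals3 by 1.59. Members that fat and muscle cells also express went the other way without passing: Cd36 0.54, Fabp4 0.49 and Lpl 0.45.

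Markers of alternatively activated and resident macrophages gave 4 falls of 25 and a median of -0.18. F13a1, a clotting transglutaminase of monocytes and macrophages, read 430.1, 519.8 and 499.5 in the AREG arrays and 691, 804 and 806 in the PBS arrays and fell by 0.67 ± 0.12. Stab1, a scavenger receptor, and the chemokine Pf4 fell by 0.92 ± 0.17 and 0.69 ± 0.16. Chil3, a chitinase-like protein, was dim (23.8, 23.4 and 18.4 against 29.3, 32.3 and 43.5) and fell by 0.67, and it was not called in the blocked fit (adjusted p = 0.0535, limma). Cd209f was called there instead (adjusted p = 0.0293, limma) at 0.63 ± 0.19. Mrc1 differed by -0.70 and was not called.

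Of 25 CC and CXC chemokines 5 fell and 0 rose, with 7 above 0 and a median of -0.10. All 5 called are CC chemokines. Ccl3 read 242, 162 and 167 in the AREG arrays and 602, 433 and 818 in the PBS arrays and fell by 1.67 ± 0.37. Ccl6, a chemokine that rodent macrophages make in quantity, read 335, 522 and 368 against 855, 886 and 1028 and fell by 1.20 ± 0.24. Its neighbour Ccl9 read 293, 293 and 258 against 576, 469 and 687 and fell by 1.02 ± 0.20. Ccl2 and Ccl7, the ligands of Ccr2, fell by 0.80 and 0.88, and Ccl7 was not called in the blocked fit (adjusted p = 0.0524, limma). The arrays of the called chemokines did not overlap, as in nearly all called genes, with PBS replicate 3 the highest array for each of the 5.

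Receptors of leukocytes for chemokines and growth factors were all below 0 (17 of 17, median -0.75), and 6 fell. Cx3cr1, the fractalkine receptor of patrolling monocytes and macrophages, read 166, 191 and 218 in the AREG arrays and 302, 340.5 and 319 in the PBS arrays and fell by 0.75 ± 0.14. C5ar1 fell by 0.95 ± 0.18, Ccr1 by 0.85, Csf2rb by 0.86 and Plaur, the urokinase receptor, by 0.56, with Csf1r as the remaining call. The blocked fit called 8. Ccr2 differed by -0.94 and Il7r by -1.46 without passing.

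Of 22 transcription factors of myeloid cells 3 fell and 0 rose (median -0.16). Runx1 read 421, 542 and 434 in the AREG arrays and 894, 1327 and 828 in the PBS arrays and fell by 1.10 ± 0.20. Hif1a, the oxygen-sensing factor, fell by 0.61 ± 0.12, and Egr2 by 0.58 ± 0.14, the latter not called in the blocked fit (adjusted p = 0.0543, limma). Spi1, a master regulator of the lineage, read 165, 254 and 199.5 in the AREG arrays and 327, 475 and 432 in the PBS arrays. Its groups were apart, as in 22.3% of all genes. Spi1 passed only in the blocked fit (adjusted p = 0.0412, limma), as did Bhlhe41, which lay higher by 0.49 ± 0.13 (adjusted p = 0.0347).

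Complement genes split: 2 of 17 fell and 1 rose (median -0.35). C3ar1, the receptor of the C3a fragment, read 656, 902 and 633 in the AREG arrays and 1540, 2106 and 1960 in the PBS arrays and fell by 1.36 ± 0.31, and C5ar1 is the other fall. C7, a component of the membrane attack complex, read 446, 411 and 631 in the AREG arrays and 188, 219 and 292 in the PBS arrays and rose by 1.09 ± 0.22. The C1q chains made by macrophages differed by -1.05 (C1qa), -1.02 (C1qb) and -1.06 (C1qc), and only C1qc passed, in the blocked fit (adjusted p = 0.044, limma). None of the 8 interferon-inducible GTPases measured, of 15 listed, was called (median 0.10, Gbp4 0.60 the nearest). None of 13 genes of MHC class I and the immunoproteasome was called either (median -0.20), where Pdia3 passed in the blocked fit (adjusted p = 0.0368, limma, at -0.81 ± 0.23). The class I genes H2-K1 and H2-D1 were not among the genes tested.

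Growth factors and cytokines of repair went both ways, 2 up and 2 down of 24 (median -0.16). Vegfa, the main growth factor of vessels, read 1328, 1109 and 1133 in the AREG arrays and 749, 771 and 898 in the PBS arrays and rose by 0.56 ± 0.12. Bmp4 rose by 0.56 ± 0.14 with 465, 479 and 416 against 281, 316 and 325, a call lost in the blocked fit (adjusted p = 0.0635, limma). Tgfb3, an isoform of transforming growth factor beta, read 871, 968 and 996 in the AREG arrays and 1377, 1695 and 1326 in the PBS arrays and fell by 0.63 ± 0.14, and Hgf, the factor that wakes satellite cells, fell by 0.60 ± 0.15. Tgfb1 and Igf1 differed by -0.80 ± 0.24 and -0.58 ± 0.25 and were not called.

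Matrix genes were lower in the lists of collagen processing, glycoproteins and proteases. Of 21 collagen-modifying enzymes and chaperones 9 fell, 0 rose and all 21 lay below 0 (median -0.50). Lox, the lysyl oxidase that crosslinks collagen and elastin, read 810.1, 1026 and 1067 in the AREG arrays and 1893, 2003 and 2093 in the PBS arrays and fell by 1.05 ± 0.20. P4ha3, a prolyl hydroxylase subunit, read 183, 267 and 251 in the AREG arrays and 429.6, 646 and 672 in the PBS arrays and fell by 1.31 ± 0.24. Plod2, which hydroxylates lysines for crosslinks, fell by 1.16 ± 0.21 from 347, 522 and 434 to 166, 218 and 197, and Serpinh1 (Hsp47), the collagen chaperone, by 0.75 ± 0.19. Rcn3, Loxl3, Loxl1, P4hb and P3h1 fell by 0.90, 0.84, 0.86, 0.57 and 0.44. In each of these 9 the groups were apart, as in 572 of the 573 called genes.

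Among the fibrillar collagens 2 of 9 fell (median -0.49). Col5a2 read 273, 401 and 356 in the AREG arrays and 567, 753 and 628 in the PBS arrays and fell by 0.93 ± 0.21, and Col5a1, its partner in the collagen that nucleates fibrils, fell by 0.49 ± 0.12. The abundant chains Col1a1, Col1a2 and Col3a1 differed by -0.69 ± 0.29, -0.61 ± 0.24 and -0.86 ± 0.34. They did not pass. Their arrays did not overlap, as in 22.3% of all genes, for example 2450, 2828 and 3194 against 4047, 5589 and 4104 for Col1a1. Of 18 network and other collagens 0 were called (median 0.00, with a negative sign in 8 of the 16 alternatives), and the blocked fit called 2 lower, among them Col12a1 at -0.93 ± 0.26 (adjusted p = 0.0138, limma).

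Matricellular proteins and glycoproteins gave 8 falls of 27 and a median of -0.57, and the blocked fit 11. Tnc (tenascin-C), a transient protein of injured tissue, read 332, 637 and 736 in the AREG arrays and 1254, 2064 and 1513 in the PBS arrays and fell by 1.55 ± 0.30. Thbs1 read 625, 852 and 980.3 in the AREG arrays and 1163, 1960 and 1726 in the PBS arrays and fell by 0.97 ± 0.19. Fbln2 and Fbn2, components of elastic fibres and microfibrils, fell by 0.67 ± 0.12 and 0.63 ± 0.14, Ltbp2 by 0.80 and Emilin1 by 0.50. With Cthrc1 and Thbs2 these are the 8. Fn1, Postn and Vcan differed by -0.80, -0.80 and -1.05 and were not called. Of 10 small leucine-rich proteoglycans 0 passed (median 0.02), but Aspn (asporin) passed in the blocked fit at -0.89 ± 0.23 (adjusted p = 0.0242, limma), and 0 of 11 basement membrane genes passed in either fit.

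Matrix proteases and their inhibitors moved in both directions. All 11 matrix metalloproteases measured lay below 0 (median -0.51) and 5 fell. Mmp14, the membrane-bound collagenase that activates Mmp2, read 389, 336 and 466 in the AREG arrays and 713, 905 and 727 in the PBS arrays and fell by 0.98 ± 0.23. Mmp13, the rodent interstitial collagenase, fell by 0.93 ± 0.21, Mmp19 by 1.05 and Mmp23 by 0.73, and Mmp12, the macrophage elastase, by 1.52 with 84.8, 85.7 and 63.4 against 134, 253 and 322. The membrane protease Adam8 and the aggrecanase Adamts4 fell by 0.89 ± 0.21 and 0.60 ± 0.15, and with Adam12 (-0.87) they were 3 of 11 in their list.

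The tissue inhibitors of metalloproteases split by member. Timp1, which injured tissue induces, read 320.4, 327 and 351 in the AREG arrays and 827, 802 and 935 in the PBS arrays and fell by 1.36 ± 0.25. Timp3, which is bound to the matrix, read 1726, 1600 and 1408 in the AREG arrays and 954, 924 and 920.5 in the PBS arrays and rose by 0.75 ± 0.18, and Timp4, the isoform of heart and muscle, read 435, 591 and 587 in the AREG arrays and 211, 189 and 371 in the PBS arrays and rose by 1.12 ± 0.26. Timp2 was not called at -0.33 ± 0.15. Thus 3 of the 4 Timp genes passed, 1 lower and 2 higher. Acta2, the smooth muscle actin that also marks myofibroblasts, was among the most abundant falls at 1919, 2315 and 2509 against 4037, 4562 and 3731 (0.87 ± 0.17), and the Wnt modulators Sfrp1 and Sfrp2 fell by 0.87 ± 0.12 and 1.20 ± 0.31.

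Genes of cell division were lower. All 36 mitosis genes measured lay below 0 (median -0.58), 14 fell and 0 rose. Most of these genes are dim here, with 9 of the 36 above the median level of all genes. Ccna2 (cyclin A2), which drives cells through S phase into mitosis, read 74.7, 147 and 129 in the AREG arrays and 232, 380 and 298 in the PBS arrays and fell by 1.40 ± 0.33. Ccnb2 (cyclin B2) read 217, 278 and 252 in the AREG arrays and 439.9, 556 and 474 in the PBS arrays and fell by 0.98 ± 0.19. Top2a, Bub1, Anln, Kif11 and Plk1 fell by 1.10 ± 0.25, 1.08 ± 0.20, 1.05 ± 0.22, 0.92 ± 0.23 and 0.90 ± 0.15, Ect2, Mad2l1 and Prc1 by 0.85, 0.84 and 0.78, and Kif2c, Bub1b, Plk4 and Nek2 by 0.72, 0.70, 0.61 and 0.55. In AREG replicate 1 Ccna2, Top2a, Bub1, Anln and Kif11 were each at the lowest value of the 6 arrays.

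The DNA replication list was lower with fewer calls: 2 of 29 fell, Rrm2 and Mcm6, with 26 below 0 (median -0.23). Mcm6, a subunit of the replicative helicase, read 80.1, 105 and 90.5 in the AREG arrays and 129.7, 191 and 147 in the PBS arrays and fell by 0.75 ± 0.19. Pcna differed by -0.51 ± 0.18 and was not called. Cks2 and Cks1b, small subunits of cyclin-dependent kinases, fell by 1.34 ± 0.25 and 0.76 ± 0.15. Of 18 cell cycle inhibitors and p53 targets 1 fell, Cdkn1c (p57), and the blocked fit added Rb1 at -0.42 ± 0.12 (adjusted p = 0.0484, limma). Cdkn1a (p21) was not among the genes tested.

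Mitotic genes often share promoter elements: the cell cycle homology region (CHR), TTTGAA, and CCAAT boxes, which bind NF-Y. In windows from 250 bases before to 50 after the start (RefSeq, GRCm38.p6; 15483 genes tested had one, and both strands were searched), TTTGAA was found for 20 of 30 mitosis genes (66.7%) against 17.3% of all genes, and CCAAT for 21 of 30 (70.0%) against 41.7%. Among the 13 called mitosis genes with a window TTTGAA was found in 9. A match is a description of letters and not a binding site, and over all 326 genes called lower with a window 18.4% held TTTGAA. Other motifs were searched too. TTTCCCGC was found for 4 of 25 DNA replication genes (1.77% of all genes) and 0 of the 2 called. TCACGTGA (1.54% of all genes) was found for 3 of 25 lysosomal and 3 of 11 proton pump genes. Of those called it was found for 0 of 8 and 1 of 2. GAGGAAGT was found for 3 of 15 genes of the Fc receptor list (3.24% of all genes) and 1 of the 6 called. The windows of 4 called mitosis genes that hold both TTTGAA and CCAAT are shown, to show the spacing of the elements. They are not typical of all called mitosis genes: Mad2l1 and Plk4 held neither motif, Bub1 and Nek2 lacked TTTGAA, and Kif2c and Anln lacked CCAAT. The windows run from 120 bases before to 12 after the start, on the gene's own strand. Matches to TTTGAA or CCAAT on either strand are in capitals. In these 4 windows no match to one motif overlaps a match to the other.
Ccnb2, chr9:70421543-70421674, minus strand: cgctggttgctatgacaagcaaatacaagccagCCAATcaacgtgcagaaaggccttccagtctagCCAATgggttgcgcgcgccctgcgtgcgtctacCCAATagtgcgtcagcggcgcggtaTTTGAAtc
Top2a, chr11:99024178-99024309, minus strand: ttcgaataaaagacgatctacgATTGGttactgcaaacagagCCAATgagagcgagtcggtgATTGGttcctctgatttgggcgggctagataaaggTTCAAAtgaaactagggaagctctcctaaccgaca
Kif11, chr19:37376262-37376393, plus strand: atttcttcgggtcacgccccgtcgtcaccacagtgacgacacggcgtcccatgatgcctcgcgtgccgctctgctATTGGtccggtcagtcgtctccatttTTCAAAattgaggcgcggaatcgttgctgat
Prc1, chr7:80294331-80294462, plus strand: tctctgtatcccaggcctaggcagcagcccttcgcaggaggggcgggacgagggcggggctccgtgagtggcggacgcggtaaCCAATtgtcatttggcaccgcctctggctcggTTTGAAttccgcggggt

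Of 22 myogenic and fusion genes 3 fell, Mymk, Myog and Itga7, and 0 rose, with 7 above 0 and a median of -0.18. Mymk (myomaker), which fuses myoblasts, read 992, 1211 and 771 in the AREG arrays and 2323, 2982 and 2041 in the PBS arrays. Myog (myogenin), which commits them to differentiate, read 192, 224 and 174 in the AREG arrays and 382, 584 and 329 in the PBS arrays. In both genes PBS replicate 2 was the highest array and AREG replicate 3 the lowest. Progenitor genes were not called: Pax7 differed by -0.26 ± 0.12, Myf5 by -0.42 ± 0.15 and Myod1 by -0.60 ± 0.22. The blocked fit added Cdh15 and Megf10 (-0.55 ± 0.15 and -0.49 ± 0.14), which made 5.

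MicroRNA genes gave 1 fall and 1 rise among 297 tested (269 had an entry in the RefSeq table). Both shares are below those of all genes, of which 2.11% fell and 0.79% rose, so microRNA genes did not stand out as a family. The 2 loci are shown because they are the small RNA loci that passed. The precursor of miR-206, a muscle microRNA that myogenic factors induce in new fibres, was dim and read 22.2, 37.3 and 17.0 in the AREG arrays and 53.9, 68.9 and 49.3 in the PBS arrays. It fell by 1.23 ± 0.21 (adjusted p = 0.0198, limma). Mir181b-2, which belongs to a family of microRNAs expressed in differentiating myoblasts and lymphocytes, read 292, 373 and 309 in the AREG arrays and 202, 188 and 212 in the PBS arrays and rose by 0.69 ± 0.17 (adjusted p = 0.041, limma). Mature sequences follow (RefSeq, GRCm38.p6, both loci on the plus strand), with the seed, bases 2 to 8, in capitals.
miR-206-5p, chr1:20679017-20679039: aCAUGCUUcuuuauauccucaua
miR-206-3p, chr1:20679055-20679076: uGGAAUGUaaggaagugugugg
miR-181b-5p, chr2:38853845-38853868: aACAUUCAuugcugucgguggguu
miR-181a-5p, chr2:38852741-38852763: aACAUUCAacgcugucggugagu

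The miR-181a and miR-181b sequences share the seed ACAUUCA. The neighbouring precursor Mir181a-2 differed by 0.28 ± 0.18 and Mir181b-1 on chromosome 1, which yields the same mature miR-181b-5p, by -0.28 ± 0.19, and neither was called. These clusters measure precursor or host transcripts and not the mature microRNA. The muscle microRNA genes Mir133a-1 and Mir1a-1 differed by 0.59 and 0.20 without passing.

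In the list of acetylcholine receptor and synapse genes 4 of 14 fell and 0 rose, with 6 above 0 and a median of -0.10. The falls were those of Chrng, Chrna1, Chrnd and the adhesion molecule Ncam1. Chrna1 and Chrnd encode subunits that the fetal and the adult receptor share. Chrng, the fetal gamma subunit, read 238, 324 and 215 in the AREG arrays and 606, 920.5 and 421 in the PBS arrays. Chrna1 read 559.5, 1058 and 603 in the AREG arrays and 1564, 1911 and 1179 in the PBS arrays and fell by 1.10 ± 0.24, and Chrnd fell by 0.84 ± 0.21. Chrne, the adult subunit that replaces Chrng, was higher by 0.44 ± 0.18 with 552, 421 and 477 against 374, 307 and 385 and was not called. PBS replicate 3 was the lowest PBS array for each called subunit.

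Embryonic, neonatal and cardiac sarcomere isoforms were mostly lower but short of the test, with 1 of 17 called (median -0.31). Of the 17, 12 lay below 0 and 5 above. Tnnt2, the cardiac troponin T that embryonic muscle shares, read 1317, 2219 and 1071 in the AREG arrays and 3686, 4050 and 2510 in the PBS arrays and fell by 1.19 ± 0.27. Myh3 and Myh8, the embryonic and neonatal myosins, differed by -1.06 ± 0.30 and -1.16 ± 0.30. With the block both passed (adjusted p = 0.0198 and 0.0301, limma), as did Myl4 (adjusted p = 0.0402), and on the other side the slow light chain Myl3 at 1.05 ± 0.29 (adjusted p = 0.0113). The blocked fit thus gave 6 lower and 3 higher of the 17.

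Tubulins and microtubule proteins fell in number, 8 of 13 with a median of -0.90. Differentiating myoblasts rebuild their microtubules as they elongate. Tuba1a, an alpha-tubulin of growing cells, read 848, 1363 and 1115 in the AREG arrays and 2322, 2863 and 2070 in the PBS arrays and fell by 1.14 ± 0.21. Tubb5 read 1109, 1440 and 1307 against 2256, 2668 and 2296 and fell by 0.91 ± 0.18. Tubb6 read 886, 1196 and 868 against 2173, 2390 and 1780 and fell by 1.11 ± 0.23. Tubb2a fell by 1.09 ± 0.16, the doublecortin-like kinase Dclk1 by 1.24, Dcx by 0.74 and Stmn1, which destabilises microtubules, by 0.90. Tuba4a and Tuba8, isotypes of mature muscle, were not called at -0.06 and 0.37.

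Imprinted growth genes, which are active in fetal tissue and again in regeneration, had 4 falls of 15 and a median of -0.81, and 7 falls and 1 rise in the blocked fit. Peg3, a zinc-finger gene expressed from the paternal allele, read 519.7, 837 and 586 in the AREG arrays and 1397, 1704 and 1148 in the PBS arrays and fell by 1.14 ± 0.23. Peg10, Grb10 and Cdkn1c fell by 0.94 ± 0.19, 0.81 ± 0.17 and 0.70 ± 0.14. Mest and the growth factor Igf2 differed by -1.37 ± 0.41 and -0.95 ± 0.31 and did not pass. Mest read 554, 1157 and 989 against 2157, 2675 and 1905, with AREG replicate 1 the lowest array.

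**Figure D3:**
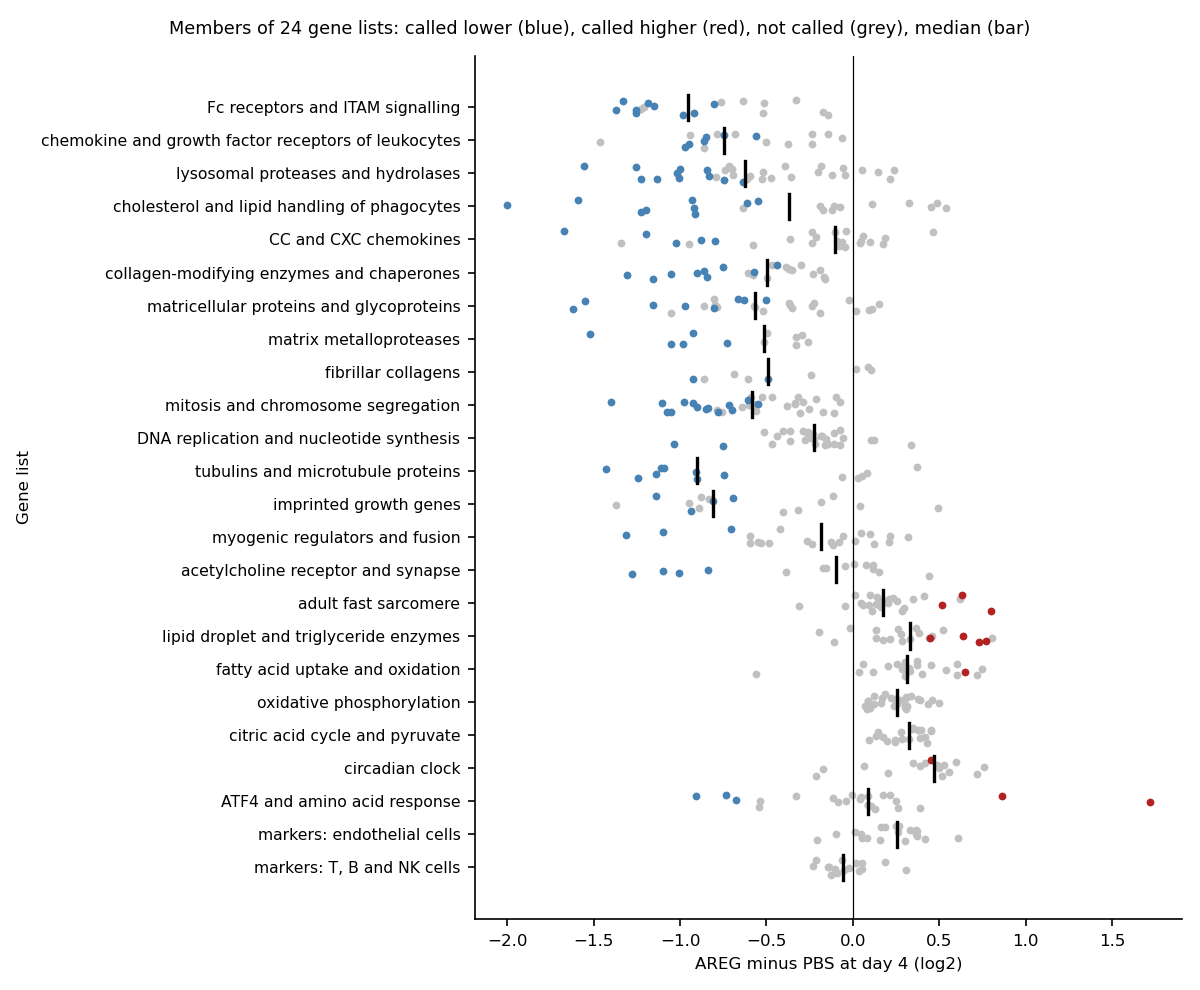
Change with AREG (horizontal axis, log2) of each measured member of 24 gene lists, 1 point per gene, called members coloured, with a bar at the median of each list. Lists of Fc receptors (median -0.95), tubulins (-0.90) and imprinted genes (-0.81) lie furthest left, and lists of mature metabolism lie right of 0 with few called members.

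Genes of the mature fibre were higher by small amounts. Of 26 adult fast sarcomere genes 24 were above 0 (median 0.17) and 3 rose. Mylk4, a myosin light chain kinase of striated muscle, read 6252, 8335 and 6378 in the AREG arrays and 4679, 4204 and 3189 in the PBS arrays and rose by 0.80 ± 0.17. Tcap (telethonin) of the Z-disc read 2116, 2817 and 2234 in the AREG arrays and 1508, 1539 and 1537 in the PBS arrays and rose by 0.63 ± 0.13. Cmya5 (myospryn), a costameric protein, read 4660, 4948 and 5052 in the AREG arrays and 3377, 3089 and 3809 in the PBS arrays and rose by 0.52 ± 0.13. The chief fast myosin Myh4 differed by 0.15 ± 0.10 and was not called.

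In the calcium list 1 of 20 rose and 1 fell. Pln (phospholamban), which restrains the calcium pump of slow and cardiac muscle, read 129.9, 125 and 122 in the AREG arrays and 88.2, 85.8 and 94.9 in the PBS arrays and rose by 0.49 ± 0.11. Casq2, the cardiac and slow calsequestrin that embryonic fibres also use, read 588, 1204 and 877 in the AREG arrays and 1620, 1682 and 1534 in the PBS arrays and fell by 0.92 ± 0.23. Jph1, Cacna1s and Ryr1, which couple excitation to calcium release, differed by 0.41, 0.44 and 0.38 and were not called. The blocked fit called 3 higher, Cacna1s among them (adjusted p = 0.0412, limma).

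A family that stood out after its values were seen was that of the Asb proteins, substrate receptors of ubiquitin ligases, several of them specific to muscle. All 18 measured members lay above 0 (median 0.29), against 59.1% of all genes, and 4 rose. Asb15 read 1020, 1269 and 1012 in the AREG arrays and 639.5, 552 and 596 in the PBS arrays and rose by 0.88 ± 0.20. Asb14, Asb18 and Asb13 rose by 0.79 ± 0.18, 0.69 ± 0.15 and 0.58 ± 0.14. Asb14 read 1290, 1475 and 1509 against 792, 654 and 1067, so the groups were apart, as in the other 3 and in nearly all called genes. In every one of the 4, PBS replicate 3 was the highest or second highest PBS array.

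Glycogen metabolism held another such family, phosphorylase kinase, which starts glycogen breakdown. Of its 5 measured subunit genes 3 rose: Phka1 (by 0.54 ± 0.13), Phkb (by 0.58 ± 0.15) and the muscle catalytic subunit Phkg1 (by 0.72 ± 0.18). Phka1, the muscle regulatory subunit, read 4296, 4631 and 4712 in the AREG arrays and 3269, 2651 and 3525 in the PBS arrays, and Phkg1 read 1999, 2086 and 2748 against 1307, 1087 and 1812. Ppp1r3a, the muscle subunit that directs a phosphatase to glycogen, read 3550, 4104 and 3773 in the AREG arrays and 2434, 1815 and 2887 in the PBS arrays and rose by 0.70 ± 0.16. In the glycolysis and glycogen list 2 of 23 rose and 1 fell (median 0.23). The fall was that of Pgam1, the non-muscle phosphoglycerate mutase, by 0.70 ± 0.18, while the muscle form Pgam2 was not called at 0.31.

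Of 13 creatine and purine genes 1 rose and 2 fell. Ckb, the brain-type creatine kinase of young fibres, read 590.2, 593 and 538 in the AREG arrays and 1289, 1260 and 816 in the PBS arrays and fell by 0.94 ± 0.17. Gatm, which makes the creatine precursor, read 1130, 1455 and 1056 in the AREG arrays and 2527, 3044 and 2016 in the PBS arrays and fell by 1.05 ± 0.25. The adult form Ckm differed by 0.15 ± 0.10, and Nt5c1a, which turns AMP into adenosine in muscle, read 354, 368 and 393 in the AREG arrays and 163, 172 and 231 in the PBS arrays and rose by 0.99 ± 0.18. The blocked fit also called Ampd1, the muscle AMP deaminase, higher (adjusted p = 0.0444, limma; 0.41 ± 0.12).

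Of 21 genes of lipid droplets and triglyceride synthesis 4 rose and 0 fell, with 18 above 0 (median 0.33). Dgat2, which makes the final bond of triglycerides, read 919, 1027 and 1077 in the AREG arrays and 538, 549 and 689.9 in the PBS arrays and rose by 0.77 ± 0.17. Gpam, the first enzyme of that pathway, read 1438, 1650 and 1583 in the AREG arrays and 1170, 1095 and 1153 in the PBS arrays and rose by 0.45 ± 0.11. Cidec, which enlarges lipid droplets, read 233, 217 and 322 in the AREG arrays and 158, 142 and 159 in the PBS arrays. Plin1, which coats them in fat cells, read 222, 210.5 and 291 in the AREG arrays and 137, 135 and 194 in the PBS arrays. For Cidec, Plin1 and Dgat2 the highest AREG array was replicate 3. The blocked fit called 6, among them Plin4 at 0.80 ± 0.23 (adjusted p = 0.0235, limma).

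Fat cells are the usual site of Plin1 and Cidec, so the identity genes of fat cells were read beside them. Of 22 measured, 1 rose, Lgals12 (by 0.93 ± 0.19), and the blocked fit called 8. Adipoq, which fat cells alone secrete, read 200, 249 and 336 in the AREG arrays and 151, 150.2 and 225 in the PBS arrays and was not called at 0.57 ± 0.24. The summed intensity of the list ran from 24965 to 28492 in the AREG arrays and from 18692 to 23966 in the PBS arrays. Whether a different amount of fat tissue in the dissected muscle plays a part was not tested. Leptin (Lep) passed in the blocked fit alone, at 0.71 ± 0.20 (adjusted p = 0.0499, limma).

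Oxidative genes were higher throughout and almost none passed. All 28 oxidative phosphorylation genes and all 19 of the citric acid cycle lay above 0 (medians 0.25 and 0.33) with 0 called, against 59.1% of all genes above 0. Ppargc1a (PGC-1 alpha), the coactivator of mitochondrial biogenesis, read 1031, 1056 and 979.6 in the AREG arrays and 577, 659 and 729 in the PBS arrays and rose by 0.65 ± 0.11, the 1 call among 24 genes of fatty acid uptake and oxidation. The blocked fit called 3, with Ucp3 (adjusted p = 0.0305, limma) and Ppara (adjusted p = 0.0402) at 0.75 ± 0.21 and 0.60 ± 0.18. It called 1 oxidative phosphorylation gene, Cox7a1 (adjusted p = 0.0443, limma), at 0.50 ± 0.16. The mitochondrial protein Chchd10 rose by 0.48 ± 0.12 with 4134, 3720 and 3773 against 2770, 2500 and 3067.

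Genes of the circadian clock were higher as well, 14 of 16 above 0 with a median of 0.47, and 1 was called. Nr1d2 (REV-ERB beta), a repressor in the clock loop, read 1205, 1294 and 1248 in the AREG arrays and 1010, 912 and 826 in the PBS arrays and rose by 0.45 ± 0.11. The output factors Tef, Hlf and Dbp differed by 0.50 ± 0.13, 0.60 ± 0.18 and 0.72 ± 0.24. Tef and Hlf passed in the blocked fit (adjusted p = 0.0266 and 0.0239, limma), which called 6 of the 16. Arntl, whose expression runs opposite to that of these genes over the day, differed by -0.21 ± 0.35. Hours of dissection are not given in the labels.

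Glucocorticoid-induced genes did not move as one. Of 16, 2 fell, the metallothioneins Mt1 and Mt2 (by 0.81 ± 0.18 and 1.20 ± 0.30), and Mt2 was lowest in AREG replicate 3 (3366, 1990 and 1564 against 4995, 5105 and 4977). Klf9 lay higher by 0.69 ± 0.18 and passed in the blocked fit (adjusted p = 0.0366, limma). Fkbp5 and Tsc22d3 differed by 0.03 and 0.47 without passing. Txnip, which glucose and glucocorticoids induce, read 3584, 3313 and 4098 in the AREG arrays and 2360, 2394 and 2881 in the PBS arrays and rose by 0.53 ± 0.13.

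Several of the largest or most abundant rises are not covered by the lists above. Klhl33, a kelch protein, read 476, 689 and 639 in the AREG arrays and 216, 204 and 340.5 in the PBS arrays and rose by 1.27 ± 0.18. Scn4b, a sodium channel subunit, read 1205, 1192 and 1448 against 620.3, 626 and 870 and rose by 0.87 ± 0.20, and Hjv (hemojuvelin), a bone morphogenetic protein co-receptor abundant in muscle, read 5579, 5262 and 5621 against 4346, 4195 and 4010 and rose by 0.39 ± 0.10, the smallest change of any called gene. Lncpint, a long noncoding RNA, rose by 0.89 ± 0.15 with 990.4, 735 and 776 against 455, 426 and 458. Sh3rf2, Ces1d, Plcd4, Agbl1 and Plaat1 rose by 1.04 ± 0.23, 1.08 ± 0.28, 0.98 ± 0.23, 0.94 ± 0.21 and 0.90 ± 0.21. PBS replicate 3 was the highest PBS array for each of these 5.

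Chac1, the glutathione-degrading enzyme at the end of the ATF4 stress pathway, had the largest rise of all named genes, and its arrays were uneven: 1131, 609 and 542 in the AREG arrays and 237, 212 and 208 in the PBS arrays. It rose by 1.72 ± 0.32 (adjusted p = 0.0198, limma), and AREG replicate 1 lay far above the other AREG arrays. The wider list of ATF4 and amino acid genes did not move with it: 2 of 25 rose and 3 fell (median 0.08, and -0.02 without both replicate 1 arrays). Vldlr, a lipoprotein receptor, read 1922, 1831 and 2034 in the AREG arrays and 1107, 852 and 1264 in the PBS arrays and rose by 0.86 ± 0.21. Asns (asparagine synthetase) read 156, 189 and 181 in the AREG arrays and 274, 300.2 and 297 in the PBS arrays and fell by 0.73 ± 0.13, and Psat1, of serine synthesis, and Slc7a5, the leucine transporter, fell by 0.68 ± 0.12 and 0.91 ± 0.15. Atf3 fell by 0.77 ± 0.15 with 279, 248 and 246 against 467, 353 and 517. Called members of the list thus went in both directions.

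The amino acid response element bound by ATF4, searched as TGATGNAA on both strands of the same windows, was found for 7 of 21 genes of the list with a window (33.3%) and for 3.64% of all genes. It was found for 3 of the 4 called genes with a window, Chac1, Vldlr and Asns, and not for Psat1, so rises and falls both carry it. The matches begin 193, 200 and 23 bases before the start. They are shown in capitals within 68 bases on the gene's own strand (RefSeq, GRCm38.p6), since the element does not separate the directions. In Chac1 and Vldlr the match is on the opposite strand and reads TTGCATCA.
Chac1, chr2:119351019-119351086, plus strand: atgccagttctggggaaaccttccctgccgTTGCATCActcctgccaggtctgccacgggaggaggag
Vldlr, chr19:27216790-27216857, plus strand: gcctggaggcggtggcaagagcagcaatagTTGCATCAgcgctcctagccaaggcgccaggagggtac
Asns, chr6:7693195-7693262, minus strand: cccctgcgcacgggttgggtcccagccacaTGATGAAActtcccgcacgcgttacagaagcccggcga

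Other stress and housekeeping lists moved little. Of 17 aminoacyl-tRNA synthetases 0 were called (median 0.00). Endoplasmic reticulum chaperones were lower, 20 of 22 below 0 (median -0.35), with Edem1, which extracts misfolded glycoproteins, and P4hb called, and 5 in the blocked fit. Edem1 read 236, 334 and 303 in the AREG arrays and 420.5, 561 and 592 in the PBS arrays and fell by 0.85 ± 0.16. Among heat shock genes Hsp90aa1 and the chaperonin subunit Cct3 fell by 0.62 ± 0.12 and 0.54 ± 0.13, 2 of 17. In the heme and iron list 2 of 22 fell. Hmox1, which opens the heme ring, read 182, 228 and 178 in the AREG arrays and 347, 434 and 353 in the PBS arrays and fell by 0.95 ± 0.13, and Ftl1 (ferritin light chain) read 1355, 2165 and 1793 in the AREG arrays and 2815, 3945 and 3456 in the PBS arrays and fell by 0.96 ± 0.17.

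Ribosomal protein genes lay slightly lower, 25 of 26 below 0 with a median of -0.32, and 1 fell, Rps19, by 0.59 ± 0.13. The elongation factors Eef1a1 and Eef1b2 fell by 0.70 ± 0.17 and 0.75 ± 0.16. Eef1a1, the isoform that mature muscle replaces by another, was the most abundant of the called falls and read 4567, 6193 and 5245 in the AREG arrays and 9143, 9880 and 7067 in the PBS arrays. Rbm3, a cold-inducible RNA-binding protein, and the antiviral membrane protein Ifitm3 fell by 0.65 ± 0.15 and 0.57 ± 0.12. Bex1, a small adaptor of regenerating muscle and nerve, read 93.4, 236 and 118 in the AREG arrays and 412, 407 and 299.7 in the PBS arrays and fell by 1.42 ± 0.25. AREG replicate 2 was the highest AREG array for Bex1 and Eef1a1.

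Glipr1 and C1qtnf3 were among the 15 largest falls and are in none of the lists described. Glipr1, a member of a family of cysteine-rich secreted proteins, read 150.1, 218 and 127 in the AREG arrays and 361, 644 and 444 in the PBS arrays and fell by 1.55 ± 0.33. C1qtnf3, a secreted relative of adiponectin, read 364, 762 and 638 in the AREG arrays and 1462, 1760 and 1367 in the PBS arrays and fell by 1.44 ± 0.26. Anxa2 (annexin A2), which aids membrane repair, was the 1 of 17 genes of the dystrophin complex and costameres to be called, and it fell by 1.11 ± 0.25 with 521, 613 and 623 against 1151, 1348 and 1303. In Glipr1, C1qtnf3 and Anxa2 the groups were apart, as in 572 of the 573 called genes.

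Markers of other cell types gave almost no calls. Foxp3, the Treg factor, read 106, 91.4 and 94.9 in the AREG arrays and 102, 91.8 and 91.0 in the PBS arrays and differed by 0.04 ± 0.11, and 0 of 11 Treg markers were called (Il2ra 0.35 and Ikzf2 0.37 the nearest). In the Treg-depleted mice of day 8 Foxp3 read 95.6, 107.5 and 100.9 with AREG and 90.8, 89.7 and 100.2 with PBS. Its intensity was thus no lower where Treg cells were depleted, and it cannot show whether they changed at day 4. None of 16 T, B and NK cell, 12 neutrophil, 12 mast cell and eosinophil, 9 dendritic cell, 9 Schwann cell, 5 red cell or platelet and 10 skin markers passed in either fit. Of these sets 0 T, B and NK, 0 neutrophil, 1 mast cell or eosinophil and 2 Treg markers were brighter than the median gene. Fibro-adipogenic progenitor and fibroblast markers gave 1 rise of 15, Gsn (gelsolin), by 0.48 ± 0.11, and their summed intensity of 16616 to 19210 with AREG spanned that of 17605 to 18495 with PBS. Pdgfra, the defining receptor of those cells, was not called at -0.34 ± 0.15.

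Endothelial markers were higher in 18 of 20 (median 0.26) with 0 called, and Flt1, a Vegfa receptor, passed in the blocked fit at 0.61 ± 0.18 (adjusted p = 0.0452, limma). Pecam1 and Cdh5, which all endothelial cells carry, differed by 0.16 and 0.37. Of 12 pericyte and smooth muscle markers Acta2 fell, while Abcc9 and Rgs5 lay higher by 0.56 ± 0.15 and 0.51 ± 0.15, and Abcc9 passed in the blocked fit (adjusted p = 0.0478, limma). Tendon markers had 8 of 10 above 0 and 0 called. Chad (chondroadherin) differed by 1.24 ± 0.32 with overlapping arrays (1637, 856 and 1212 against 409, 355 and 889.7) and passed in the blocked fit (adjusted p = 0.0254, limma). The summed tendon intensity was 8578 to 9648 with AREG and 7542 to 10300 with PBS.

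Macrophage markers were lower in the same arrays as the matrix, mitosis and muscle genes. Cd68 read 579, 715 and 477 in the AREG arrays and 1187, 1874 and 1694 in the PBS arrays. The summed intensity of the Fc receptor list ran from 3456 to 4505 with AREG and from 7116 to 9001 with PBS, and that of the lysosomal list from 28827 to 35721 and from 42361 to 52149. The part of macrophage number in the falls of matrix, mitosis and muscle genes was not tested.

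The day-8 arrays, from Treg-depleted mice, share no array with those of day 4. There 1 gene was called (0.00506%), Mmp12, and 1506 had an unadjusted p under 0.05 (7.62%, limma). Of the 417 genes that fell at day 4, 402 were also lower with AREG at day 8, where 48.8% of all genes were lower. At an unadjusted p under 0.05, 178 of the 417 were lower at day 8, against 5.57% of all genes (limma). Of the 156 genes that rose at day 4, 95 were higher at day 8, where 51.2% of all genes were higher, and 9 were higher at an unadjusted p under 0.05, against 2.05% of all genes (limma). The difference between falls and rises was not tested. The median day-8 change was -0.34 for the called falls and 0.04 for the called rises. Of the day-8 arrays, AREG replicate 3 was the lowest in the Fc receptor and fibrillar collagen lists. Mean log2 intensities of the Fc receptor list were 8.40, 7.98 and 7.29 with AREG against 8.20, 8.12 and 8.61 with PBS. For fibrillar collagens they were 8.81, 8.61 and 8.06 against 8.80, 8.84 and 8.74. In the atrophy list that array was the highest, at 9.86. Whether the day-8 counts rest on that array was not tested.

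Single genes show both cases. Falls with day-8 differences close in size to those of day 4 included C1qtnf3 (-1.32 ± 0.26 at day 8), Rcn3 (-0.95 ± 0.16) and Atp6v0d2 (-1.93 ± 0.53), of which 0 were called at day 8. Falls with day-8 differences near 0 were those of Hmox1 (0.04 ± 0.13), Cd63 (0.05 ± 0.13), Ltbp2 (-0.04 ± 0.12) and F13a1 (-0.03 ± 0.12). Among the rises, Ppargc1a (0.03 ± 0.11), Klhl33 (-0.09 ± 0.18), Cntfr (0.01 ± 0.12) and Nt5c1a (0.01 ± 0.18) lay near 0 at day 8, while Timp4 (0.55 ± 0.26) and Chac1 (0.53) did not. Timp4 was not called at day 8. It read 425, 485 and 902 with AREG and 374, 412 and 382 with PBS there, with AREG replicate 3 far above the rest. The difference between the day-4 and day-8 effects was tested for every gene and 0 passed (smallest adjusted p = 0.426, limma; 1160 at an unadjusted p under 0.05). No gene is therefore shown to respond in one setting and not in the other.

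**Figure D4:**
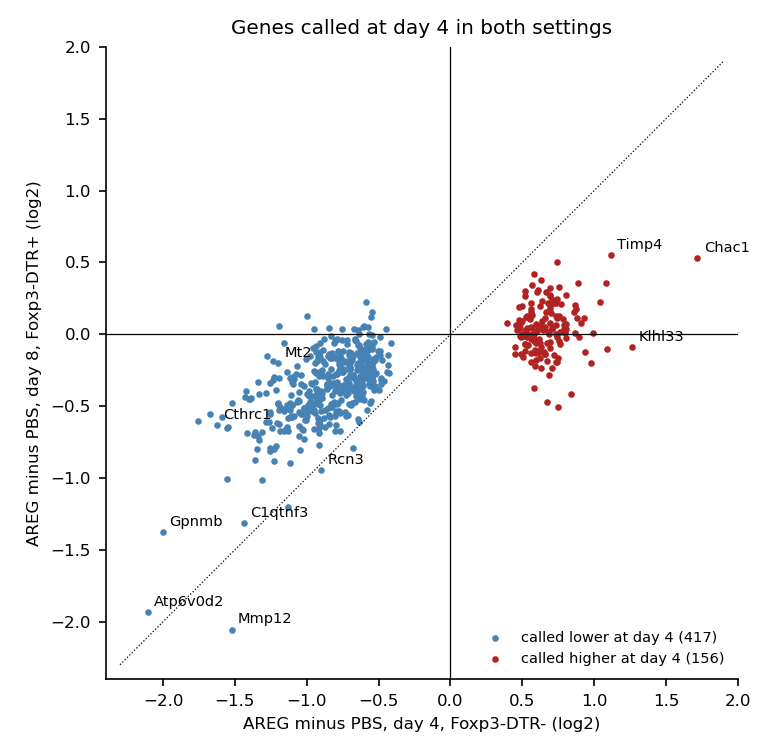
Change with AREG at day 8 in Treg-depleted mice (vertical axis, log2) against the change at day 4 with Treg cells present (horizontal axis, log2) for the 573 genes called at day 4, 1 point per gene. Of the 417 falls, 402 lie below 0 at day 8, and the 156 rises are spread around a day-8 median of 0.04.

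**Figure D5:**
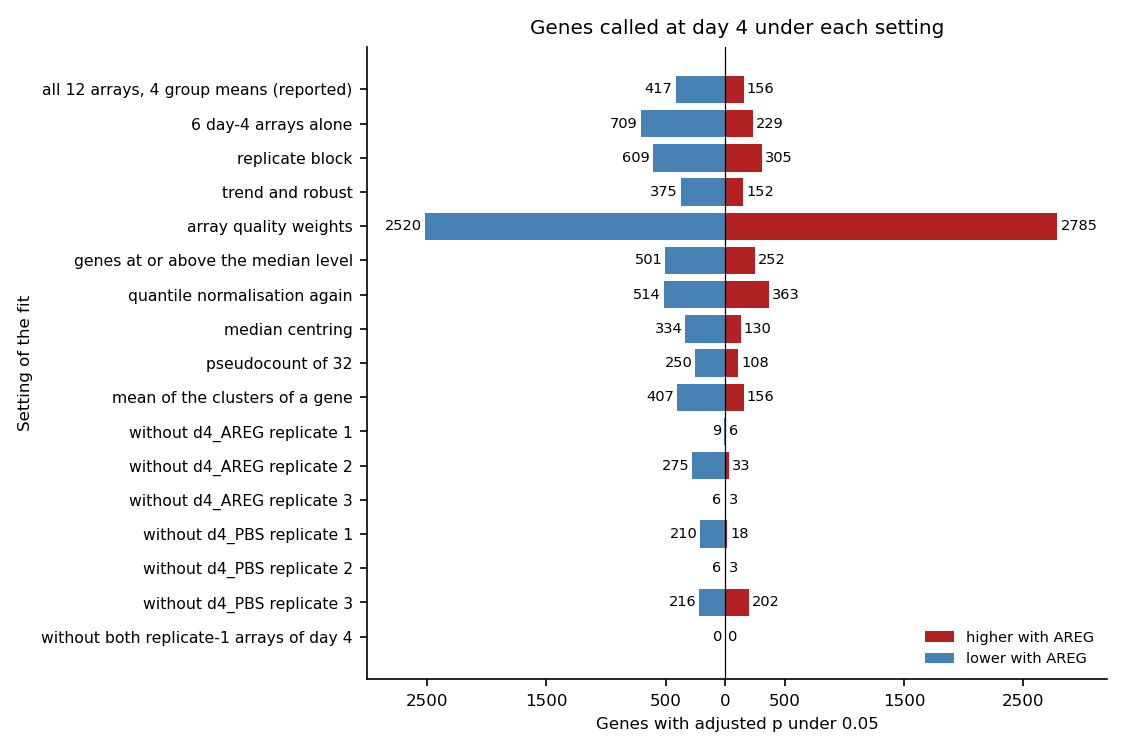
Number of genes called higher and lower with AREG at day 4 (horizontal axis, count) under the reported fit and each alternative (vertical axis). The count runs from 0 without both replicate 1 arrays to 5305 with array quality weights, with 573 as reported.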

How the data were processed

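RNA of 12 tibialis anterior muscles was measured on Affymetrix Mouse Gene 1.0 ST arrays. The authors deposited 1 table of intensities, made with RMA in Affymetrix Power Tools per the submitters' processing notes, with values on a linear scale and the software version and genome build not given in the sources used here. Log2 was taken of the deposited intensity with no pseudocount. Of 24922 probe set clusters 21425 carried exactly 1 gene symbol in the platform annotation, 1399 several and 2098 none, and only the first were named. Where a gene had several clusters, the brightest one on average over all 12 arrays was kept, which left 19752 genes. limma 3.58.1 in R 4.3.3 fitted 4 group means to all 12 arrays (lmFit, eBayes, 8 residual and 7.10 prior degrees of freedom), with Benjamini-Hochberg adjustment over all genes and calls at an adjusted p under 0.05. The steps were tested on simulated data with independent noise in each array, which lack the shared deviations of same-number arrays.

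Replicate numbers come from the sample titles. Deviations from the group means correlated at 0.558, 0.201 and 0.511 between AREG and PBS arrays of the same number at day 4, against -0.486 to 0.270 between arrays of different numbers. The highest of these, between AREG replicate 2 and PBS replicate 3, exceeds the same-number value of replicate 2. The titles do not say whether arrays of the same number share an animal, cage or day. Each deviation is from the mean of its own group, so the different-number values are not independent of the same-number ones. Since all 3 same-number values were over 0.1, a second fit treated the numbers as pairs at both days, although day 8 was not checked. That pairing is an assumption, and the blocked values stand beside the results they change. The alternatives were the 6 arrays alone, the block, a trended robust prior, array weights, a level filter, quantile normalisation or median centring, a pseudocount, the mean of clusters, and each array left out.

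The named genes were the 15 largest called changes and the 8 most abundant called genes in each direction, the 5 smallest p-values of each list, called members of short counts, and the EGF receptor and ligand genes with Foxp3. Further members, the gene families and the firmest calls were chosen after their values were seen. The members and the gene lists were chosen with earlier results of these data known, so the list counts and medians carry no test. Promoter windows and microRNA sequences are those of RefSeq (GRCm38.p6).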

Additional observations from a re-analysis of the deposited data

How the results depend on the processing

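Against the 573 calls reported (156 higher, 417 lower), the 6 day-4 arrays alone gave 938 calls (709 lower), a second quantile normalisation 877 (363 higher), a pseudocount of 32 358 (250 lower), and array quality weights 5305 (2785 higher, 2520 lower). Restricting the test to genes at or above the median level gave 252 higher. Blocking on the replicate number, which assumes that arrays of the same number are pairs, gave 914 calls, 305 of them higher. Leaving out 1 array gave 9 to 418 calls, 3 to 202 of them higher and 6 to 275 lower. Without both replicate 1 arrays, an alternative chosen after seeing the data, 0 genes were called, 0 higher and 0 lower, with 2881 at an unadjusted p under 0.05 (limma). The difference between the day-4 and day-8 effects had 0 calls in every setting except array weights, which gave 2232 (smallest adjusted p as reported 0.426). Trended robust prior, median centring and the mean of clusters kept the number of calls within 1.5 times. The cause was not tested, other than that fewer arrays enter the reduced fits. In AREG replicates 1, 2 and 3 the weights were 0.167, 0.936 and 5.52. No called gene that was followed changed its sign under any alternative, and 0 passed under all 16. Where arrays were left out the sign was fixed beforehand for the 572 called genes whose groups do not overlap. Without both replicate 1 arrays the median change turned sign for EGF family ligands (-0.09), EGF receptor feedback (-0.06), network collagens (-0.12), small leucine-rich proteoglycans (-0.05), ATF4 genes (-0.02) and the atrophy list (0.09).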

Other observations

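Clusters that carry no single gene symbol were left out of the comparison. When all 24922 clusters were tested together, 25 of those with several symbols passed, 16 of them lower with AREG, and 26 of those with none, 15 of them lower, beside 399 of those with 1 symbol. Of the called genes 32 were measured by more than 1 cluster, and in 0 of them did the clusters differ in sign.

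Of 38 kinesins measured, a family gathered by name after values were seen, 3 fell and 1 rose. Kif2c and Kif11 are the mitosis genes described above, Kif26b was the other fall, and Kif1c, which carries vesicles along microtubules, rose. Genes of the atrophy and denervation list gave 4 falls and 0 rises of 20, with a median of -0.02. Nuclear receptor and coactivator genes of muscle gave 2 rises and 0 falls of 17 (median 0.26), and 3 rises in the fit with the replicate block.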
